A study of Mus musculus with 7 samples.

Results

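The genes that build gangliosides were examined in RNA-seq of mouse hippocampus. The set holds 10 of the 55416 genes in the count tables, found by symbol: the sialyltransferase genes St3gal5, St8sia1, St8sia3, St8sia5, St3gal2, St6galnac3, St6galnac4, St6galnac5 and St6galnac6, and B4galnt1, an N-acetylgalactosaminyltransferase gene of the same pathway. The set was chosen because St6galnac5 was low in both libraries from ONX-0914-treated mice. Values of ONX-0914 against the other groups are therefore given for these genes as a description, with no test. Counts of calls for them under other processing, given at the end, are likewise a description. Tests were kept for DMSO against control, and for other genes of glycosphingolipid metabolism and of sialic acid transfer and supply.

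All groups were male CD1 mice, an outbred stock, matched for age, and the hippocampus was the tissue of every library. Control mice were left untreated and gave 3 libraries (replicates 1 to 3). DMSO-treated mice received the vehicle by intraperitoneal injection 2 times per week over 2 months and gave 2 libraries (replicates 2 and 3). ONX-0914-treated mice received 10 mg/kg of ONX-0914, an inhibitor of the immunoproteasome, on the same schedule and gave 2 libraries (replicates 1 and 2). The age in weeks is not given in the sources used here, and neither is the tie of libraries to single mice, so p-values measure the spread between these libraries. The comparison of the groups asks how prolonged inhibition of non-constitutive proteasomes alters hippocampal gene expression.

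The total count on genes was 2842675 to 3877006 in the other libraries and 13782270 in ONX-0914 replicate 2. Within groups, the chi-square statistic per degree of freedom between libraries was 2.50 to 3.20 in the control and DMSO groups and 76.9 between the ONX-0914 libraries. Thus, the ONX-0914 libraries differed from each other far more than the replicates of the other groups did. Over all 13152 genes tested, the ratio of the higher to the lower ONX-0914 library had a median of 1.501, against 1.16 for the DMSO libraries. Levels are given as CPM, the counts of a gene relative to a library size scaled by the TMM method of edgeR.

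Gangliosides are glycolipids of the outer face of the plasma membrane that carry sialic acid and are abundant on neurons, where they take part in membrane organization, receptor function and axon–glia contact. Synthesis starts from lactosylceramide. The product of St3gal5 adds the first sialic acid and makes GM3, that of St8sia1 turns GM3 into GD3, and St8sia5 and St8sia3 encode enzymes that extend chains of sialic acid. B4galnt1 encodes GM2/GD2 synthase, which opens the way to the complex brain gangliosides, and the product of St3gal2 adds a terminal sialic acid to give GD1a and GT1b. The products of the St6galnac genes attach sialic acid to an inner N-acetylgalactosamine, which gives the alpha series of gangliosides, and St6galnac5 and St6galnac6 are known for GD1alpha and its relatives, whereas St6galnac4 acts mainly on O-glycans of proteins.

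All 10 genes passed the filter on low counts. Their counts ran from 31 for St6galnac3 in control replicate 1 to 2177 for St3gal2 in ONX-0914 replicate 2. Gene lengths were those of the longest transcript in GENCODE M21, between 2395 bases for B4galnt1 and 9747 bases for St8sia3, and levels were compared between genes only as CPM per kilobase of this length.

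In the untreated hippocampus, St3gal5 had the highest level per length of the set, 68.4 ± 6.94 CPM per kb (SD, n = 3). St6galnac5 followed with 56.1 ± 5.73 CPM per kb (SD, n = 3). By this length, the ranges of these genes did not overlap between the control libraries. With total exon length they did, with 58.5 CPM per kb for St3gal5 in control replicate 2 and 58.9 for St6galnac5 in control replicate 1. The genes of GM3 synthase and of an alpha-series enzyme were thus the most abundant of the set. St3gal2 with 38.9 ± 0.98 and St6galnac6 with 38.5 ± 1.47 CPM per kb (SD, n = 3) came next. They could not be ordered by this length, since their control values overlapped. With total exon length, St3gal2 was higher, with at least 32.9 CPM per kb in control libraries against at most 21.1 for St6galnac6. B4galnt1 had 19.4 ± 3.81 CPM per kb (SD, n = 3). St8sia3 with 9.23 ± 0.763 and St8sia5 with 9.05 ± 0.623 CPM per kb (SD, n = 3) overlapped with each other, and they changed places when total exon length was used. St8sia1 had 7.72 ± 0.0765, St6galnac4 had 7.37 ± 0.185 and St6galnac3 had 1.46 ± 0.155 CPM per kb (SD, n = 3). Hence, the genes for the later addition of sialic acid to sialic acid were lower per length than those for the first sialic acid and for the terminal galactose.

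DMSO against control is the comparison that the choice of genes did not use. None of the 10 genes was called at a Benjamini–Hochberg FDR under 0.05 with edgeR's quasi-likelihood test, and none had an unadjusted p under 0.05. Neither DESeq2 nor limma voom called any of them. Over all genes tested, edgeR called 0.0152%, DESeq2 0.0684% and limma voom 0.0%, and 2.65% had an unadjusted p under 0.05 with edgeR. The Log2FC values of the set lay between −0.31 and 0.088, with a median of −0.064 against −0.0032 for all genes tested.

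St8sia1, the GD3 synthase gene, had the largest difference of the set with DMSO. Its level was 70.2, 69.0 and 69.1 CPM in control replicates 1, 2 and 3 and 60.6 and 51.4 CPM in DMSO replicates 2 and 3. Both DMSO libraries lay below all control libraries, and this was 1 gene of the 10 in which the groups did not overlap in either direction, against 30.7% of all genes tested. The Log2FC was −0.31 (standard error 0.232, 95% interval −0.84 to 0.23, FDR = 0.9999, edgeR's quasi-likelihood test), and the interval spans both signs. With DMSO, the Log2FC of St6galnac5 was 0.088 (standard error 0.174, 95% interval −0.31 to 0.49, FDR = 0.9999, edgeR), and the interval does not reach a 2-fold change in either direction. The same holds for the intervals of all 10 genes, the widest being that of B4galnt1, from −0.94 to 0.78.

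**Figure D1:**
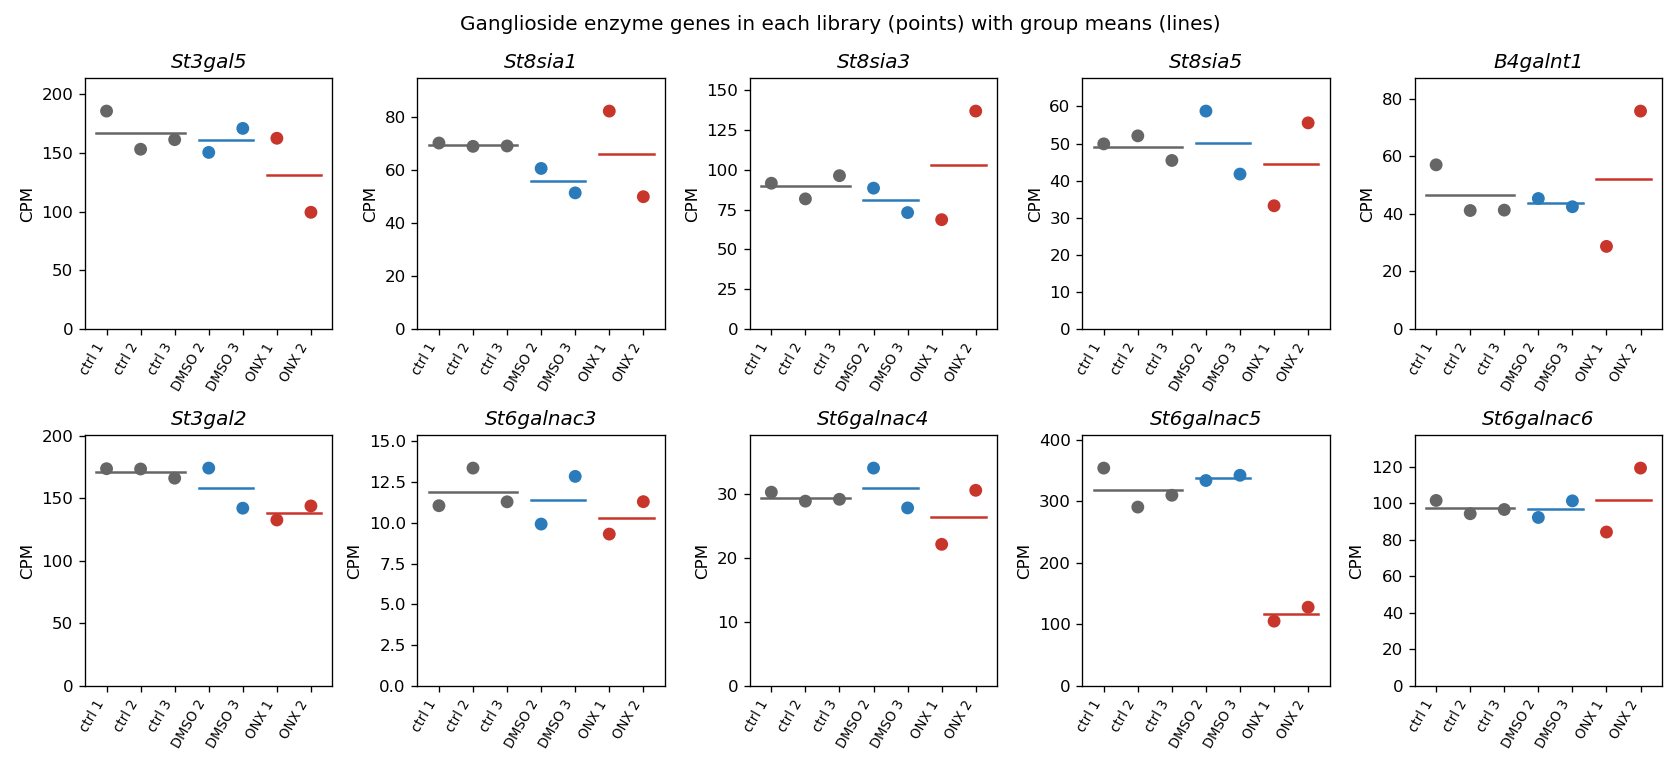
Level of each ganglioside enzyme gene in CPM (vertical axes, starting at 0) in the 3 control (grey), 2 DMSO (blue) and 2 ONX-0914 (red) libraries; points are libraries and lines are group means. St6galnac5 is the gene whose ONX-0914 libraries, at 105 and 128 CPM, lie far below all others, while in several other panels the ONX-0914 points lie on either side of the control points.

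St6galnac5 (ENSMUSG00000039037) had 354, 290 and 310 CPM in control replicates 1, 2 and 3, and 333 and 342 CPM in DMSO replicates 2 and 3. It had 105 and 128 CPM in ONX-0914 replicates 1 and 2. The ONX-0914 libraries did not overlap with any other library, and they differed from each other by a ratio of 1.21, against 1.22 between the highest and the lowest control library. The mean of the control group was 318 ± 32.5 CPM (SD, n = 3), that of DMSO 338 ± 6.004 CPM (SD, n = 2) and that of ONX-0914 117 ± 15.98 CPM (SD, n = 2), a level 2.73-fold lower than in control and 2.90-fold lower than with DMSO. These values chose the set and are a description. The Log2FC was −1.45 (standard error 0.184) against control and −1.53 (standard error 0.196) against DMSO. Exons of St6galnac5 share 1.80% of their bases with Pigk on the opposite strand. In tissue RNA, fewer cells that express a gene and less of its RNA per cell cannot be told apart.

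Of all genes tested, 192 (1.46%) had a lower Log2FC than St6galnac5 between ONX-0914 and control, and among the 1200 genes within 2-fold of its control level, 12 did. It was an abundant gene, above 95.6% of the genes tested in control CPM. The Log2FC against control stayed between −1.60 and −1.30 over the 17 alternatives in processing, with each library left out among them.

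The remaining St6galnac genes showed no such difference. St6galnac3, which lies next to St6galnac5 in the order of protein-coding genes, had 11.1, 13.4 and 11.3 CPM in control, 9.93 and 12.9 CPM in DMSO and 9.31 and 11.3 CPM in ONX-0914 libraries, so that the groups overlapped. St6galnac6, the other gene known for alpha-series gangliosides, had 102, 94.3 and 96.7 CPM in control, 92.3 and 101 CPM in DMSO and 84.3 and 119 CPM in ONX-0914 libraries. Its ONX-0914 libraries lay below and above all control libraries, and the Log2FC was 0.067 (standard error 0.188). St6galnac4, the direct neighbour of St6galnac6, had 30.3, 28.9 and 29.2 CPM in control, 34.1 and 27.8 CPM in DMSO and 22.1 and 30.6 CPM in ONX-0914 libraries. Low expression with ONX-0914 was thus not shared by St6galnac3, the neighbour of St6galnac5 within the set, or by the closest relatives of St6galnac5 there. Neighbours were looked up among the 10 genes only.

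Of the genes for the first steps, St3gal5 had 186, 153 and 161 CPM in control, 151 and 171 CPM in DMSO, and 163 and 99.5 CPM in ONX-0914 libraries. ONX-0914 replicate 1 lay within the control range and replicate 2 below it. The Log2FC of −0.35 (standard error 0.231) rested on replicate 2, and it was −0.036 without that library and −0.75 without replicate 1. St8sia1 had 82.3 and 49.96 CPM in the ONX-0914 pair, above and below all control libraries, and replicate 2 was close to the DMSO libraries. B4galnt1 had 57.0, 41.2 and 41.3 CPM in control, 45.3 and 42.5 CPM in DMSO, and 28.7 and 75.7 CPM in ONX-0914 libraries. The ONX-0914 libraries of B4galnt1 differed by a ratio of 2.64, the largest of the set, and the Log2FC against control was −0.68 without replicate 2 and 0.71 without replicate 1. Exons of B4galnt1 share 20.7% of their bases with Slc26a10 on the opposite strand, which had 5.29 and 7.40 CPM in the ONX-0914 libraries and 4.99 to 7.09 CPM in control.

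Of the genes for the later steps, St3gal2 had 174, 173 and 166 CPM in control, 174 and 142 CPM in DMSO, and 133 and 144 CPM in ONX-0914 libraries. Both ONX-0914 libraries were below all control libraries, and DMSO replicate 3 was within their range. The Log2FC was −0.31 (standard error 0.164) against control and −0.19 (standard error 0.178) against DMSO. St8sia3 had 91.6, 81.8 and 96.4 CPM in control, 88.5 and 73.2 CPM in DMSO, and 68.7 and 137 CPM in ONX-0914 libraries. St8sia5 had 49.9, 52.1 and 45.4 CPM in control, 58.8 and 41.8 CPM in DMSO, and 33.2 and 55.6 CPM in ONX-0914 libraries. In both St8sia3 and St8sia5, ONX-0914 replicate 1 was below and replicate 2 above all control libraries.

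**Figure D2:**
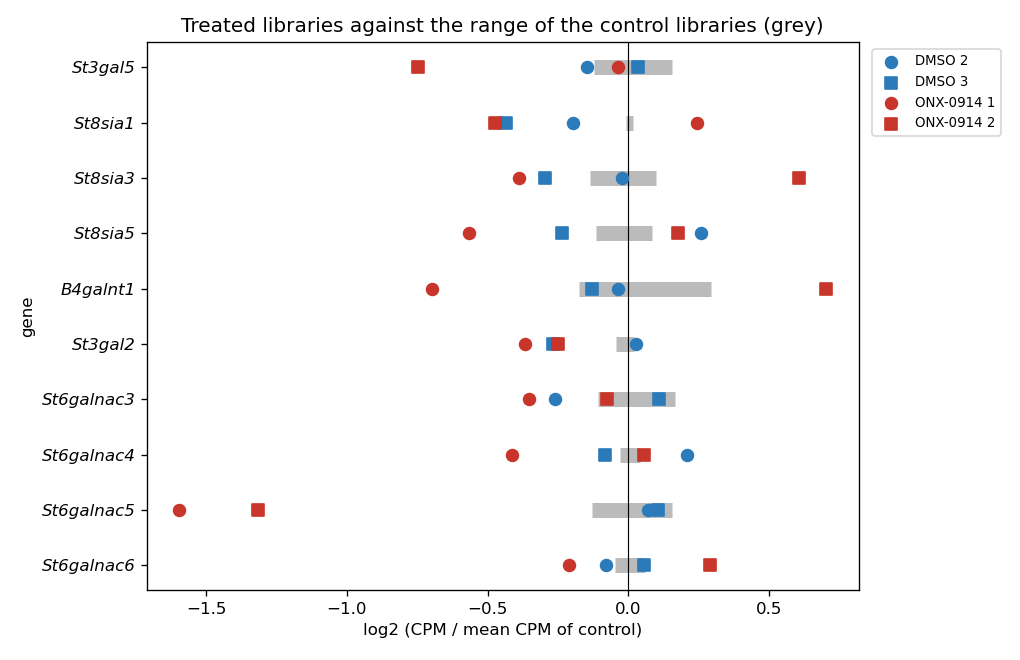
Log2 ratio of each treated library to the control mean (horizontal axis) for the 10 genes, with the range of the 3 control libraries as grey bars; blue points are DMSO and red points ONX-0914 libraries, circles for the lower and squares for the higher replicate number. The ONX-0914 libraries lie on opposite sides of the control range for 6 genes and together on the left only for St6galnac5 and St3gal2.

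Over the set, the ONX-0914 libraries lay on opposite sides of all control libraries for 6 of the 10 genes, against 23.4% of all genes tested. These were St8sia1, St8sia3, St8sia5, B4galnt1, St6galnac4 and St6galnac6, and St8sia1 was the gene with replicate 1 on the upper side. St6galnac5 and St3gal2, 2 genes of the 10, had both libraries under every control library, against 16.3% of all genes, and none had both over every control library, against 16.9%. Under the DMSO libraries as well lay St6galnac5, 1 gene of the 10, against 11.3% of all genes, and none was over both groups, against 11.4%. Taken singly, replicate 1 was under every control library for 8 of the 10 genes (32.3% of all genes) and over for 1 (36.8%), and replicate 2 was under for 4 (38.8%) and over for 5 (40.0%). Relative to the control mean, the median log2 difference was −0.38 in ONX-0914 replicate 1, where 9 genes were lower and 1 higher, and −0.010 in replicate 2, where 5 were lower and 5 higher. The lowest value in each was that of St6galnac5, −1.60 and −1.31. The ratio of the higher to the lower ONX-0914 library had a median of 1.53 over the 10 genes, about that over all genes.

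Between ONX-0914 and control, 7 of the 10 genes had a negative and 3 a positive Log2FC, with a median of −0.14 against 0.046 for all genes tested. Against DMSO, the median was −0.14 for the set and 0.048 for all genes, with 6 negative and 4 positive values. These comparisons share the ONX-0914 libraries. With total counts in place of TMM, the median of all genes moved to 0.19 and that of the set to 0.013 against control.

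The make-up of the set differed in the ONX-0914 libraries. As a share of the summed CPM per kb of the 10 genes, St6galnac5 made up 22.5%, 21.1% and 22.0% in control, 23.4% and 24.1% in DMSO and 9.79% and 10.6% in ONX-0914 libraries. The other shares differed between the ONX-0914 libraries. St3gal5 had the largest share in replicate 1, at 35.2%, against 25.9% to 27.5% in control. In replicate 2 it had 19.1%, less than St6galnac6. St6galnac6 had 17.5% and 22.0%, above its 14.4% to 15.3% in control, and B4galnt1 had 6.32% and 14.8%, below and above its 6.94% to 8.59% in control. Shares add up to the whole, so a lower share of a gene raises those of the others.

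**Figure D3:**
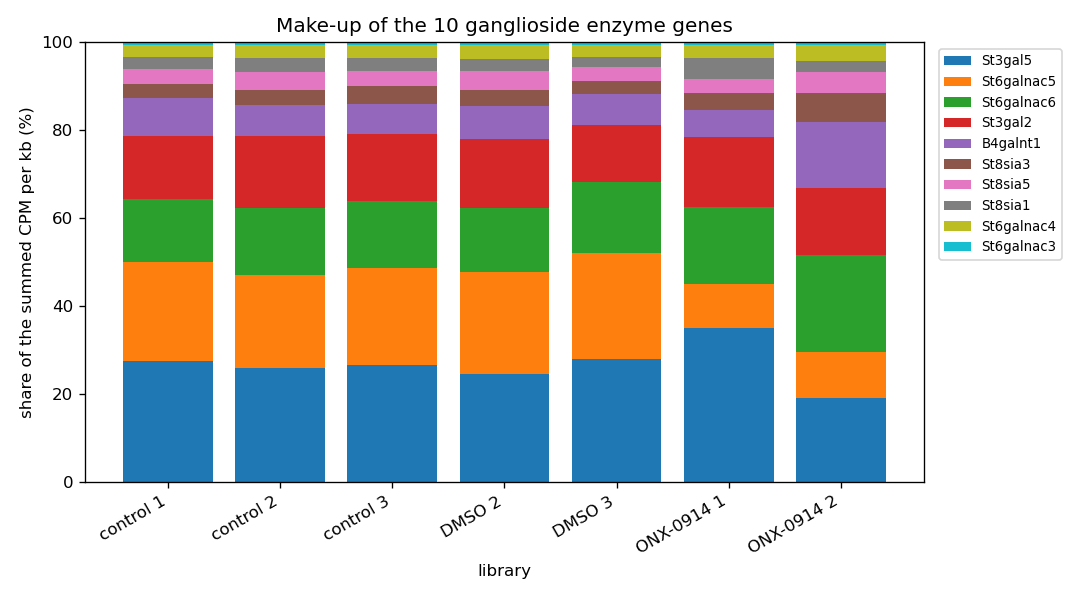
Share of each of the 10 genes in their summed CPM per kb (vertical axis, percent) in each library. The segment of St6galnac5 (orange) spans 21.1% to 24.1% of the control and DMSO bars but only 9.79% and 10.6% of the ONX-0914 bars.

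The summed level of the 10 genes was 1125, 998 and 1026 CPM in control, 1048 and 1006 CPM in DMSO, and 729 and 851 CPM in ONX-0914 libraries. Without St6galnac5, the sum was 771, 707 and 717 CPM in control, 714 and 664 CPM in DMSO, and 624 and 723 CPM in ONX-0914 libraries. ONX-0914 replicate 1 then remained below every other library, while replicate 2 fell within the control range.

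The genes whose pattern over the 7 libraries was most like that of St6galnac5 were found by the root-mean-square difference of log2 CPM centred on the control mean. These were Ak5 (0.161), an adenylate kinase gene of brain, Rnf182 (0.170), a ubiquitin ligase gene, Orai2 (0.172), a calcium channel gene, Htr1a (0.176), the gene of a serotonin receptor, and Nck2 (0.181), an adaptor protein gene. Each was low in both ONX-0914 libraries, which follows from the way they were picked, since St6galnac5 was low there. Ak5 had 365 to 400 CPM in control, 425 and 406 CPM with DMSO, and 150 and 190 CPM with ONX-0914. Orai2 ranged from 241 to 292 CPM in control, against 69.7 and 107 CPM with ONX-0914. Of the other ganglioside genes, St3gal5 came closest, with a difference of 0.631 and rank 2040 of 13151 genes.

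Marker genes of neurons also differed in the ONX-0914 libraries. The summed level of 5 general neuron markers was 4647 to 5176 CPM in control and 4177 and 4905 CPM in DMSO. It was 3834 and 3602 CPM in ONX-0914 replicates 1 and 2, where 3 and 5 of the markers were below all control libraries. The others in replicate 1, Tubb3 and Stmn2, were above all control libraries, at 764 and 461 CPM. All marker genes listed for general, CA1, CA3 and dentate gyrus neurons were detected in each control library. The summed level of 5 CA3 markers was 2240 to 2349 CPM in control, 2349 to 2444 CPM in DMSO and 858 and 745 CPM with ONX-0914. Most of this sum was Chgb, with 2124 to 2241 CPM in control and 785 and 641 CPM with ONX-0914, and Grik4, a kainate receptor gene, was at 55.4 to 66.3 CPM without treatment and at 18.4 and 33.7 CPM with it. Of the other CA3 markers, Iyd was below the control range in both ONX-0914 libraries, Bok was below it in replicate 1 and above it in replicate 2, and Coch was above it in both. The sums of the 5 CA1 and the 5 dentate gyrus markers in replicate 1 were 188 CPM against 511 to 578 CPM in control and 98.7 CPM against 271 to 341 CPM, with 5 and 4 markers below all control libraries. In replicate 2 these sums, 578 and 291 CPM, were within the control range, but 3 markers of each list (Fibcd1, Pou3f1 and Lefty1 of CA1, Prox1, Dsp and C1ql2 of the dentate gyrus) were below all control libraries, while Wfs1, Mpped1 and Pdzd2 were above. Lefty1 had no counts in either ONX-0914 library.

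Thalamus, midbrain and striatum markers were high in ONX-0914 replicate 1, and neocortex markers were not. All 8 thalamus and midbrain markers and all 6 striatum markers were above all control libraries there, with sums of 829 CPM against 66.0 to 75.7 CPM in control and 982 CPM against 147 to 171 CPM in control. In ONX-0914 replicate 2, these sums were 74.3 and 98.0 CPM, and the 3 blood markers were high, with 751 CPM against 27.5 to 38.4 CPM in control. Neocortex markers summed to 143 CPM in replicate 1, with 4 of 5 below and 1 above all control libraries, and to 271 CPM in replicate 2, against 196 to 258 CPM in control. Interneuron markers summed to 1113 CPM in replicate 1 and 569.6 CPM in replicate 2, against 500.3 to 541 CPM in control, and all 4 endothelium markers were above the control libraries in both, with sums of 243 and 201 CPM against 131 to 142 CPM. Pax7 and Irx2 of the thalamus and midbrain list had no counts in control. Oligodendrocyte markers summed to 10288 CPM in ONX-0914 replicate 1, where all 7 were above the control libraries, and to 4481 CPM in replicate 2, against 5264 to 7895 CPM in control. Replicate 1 thus differed from control in several marker lists, and St8sia1 and St3gal5 had their higher ONX-0914 level there. B4galnt1, St3gal2, St8sia3, St8sia5, St6galnac3, St6galnac4, St6galnac5 and St6galnac6 had it in replicate 2. The part of these markers in the values of the ganglioside genes was not tested.

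**Figure D4:**
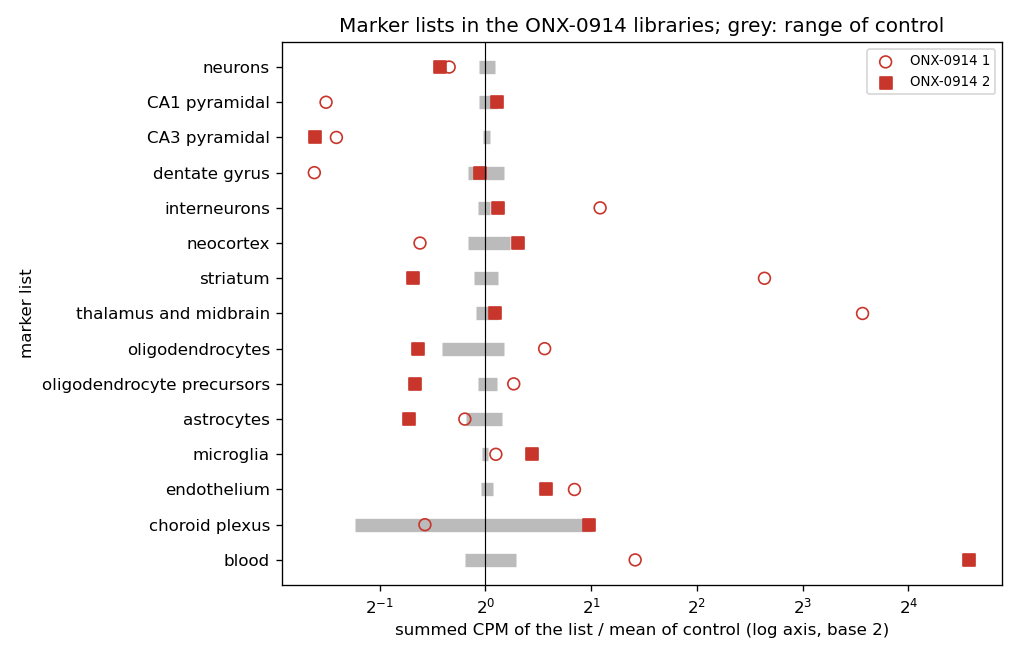
Summed CPM of 15 marker lists in the ONX-0914 libraries relative to the control mean (horizontal axis, log scale with base 2), with the range of the control libraries as grey bars; open circles are replicate 1 and squares replicate 2. The CA3 list is low in both libraries, thalamus, midbrain and striatum lists are high in replicate 1, and the blood list is highest in replicate 2.

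Other genes of glycosphingolipid metabolism, with other sialyltransferases and genes of sialic acid supply, were taken as 5 lists of 49 genes. Of these, 44 were tested. All are called the other glycosphingolipid genes for short. None of the 44 was called between ONX-0914 and control by edgeR at an FDR under 0.05 (0.114% of all genes), and 8 had an unadjusted p under 0.05 (18.2%, against 18.6% of all genes tested). DESeq2 called 2, 1 higher and 1 lower (Cers6), against 2.95% of all genes, and limma voom called none, against 0.137%. Against DMSO, none was called by edgeR (0.0456% of all genes), by DESeq2 (1.81%) or by limma voom (0.0456%), and 7 had an unadjusted p under 0.05 with edgeR, against 14.7% of all genes. With DMSO against control, none was called by these tools, and 1 had an unadjusted p under 0.05 with edgeR. The median Log2FC with ONX-0914 was 0.23 over the 44 genes against 0.046 over all genes, with 31 positive and 13 negative values.

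Of the list for ceramide and the glycolipid core, 14 of 15 genes were tested. Cers6, a ceramide synthase gene, had 88.1, 99.2 and 94.2 CPM in control, 80.0 and 86.0 CPM in DMSO and 43.3 and 56.8 CPM in ONX-0914 libraries. Both ONX-0914 libraries were below every other library. The Log2FC against control was −0.90 (standard error 0.182, FDR = 0.0865, edgeR) and that against DMSO −0.72 (standard error 0.196, FDR = 0.201, edgeR), so the difference did not pass the threshold. Cers2, the most abundant of the list per length, with 26.7 ± 4.48 CPM per kb (SD, n = 3) in control, had a Log2FC of 0.075 (95% interval −0.47 to 0.62). B3galt4, the gene of GM1 synthase and the step after B4galnt1, had only 1.38 to 2.50 CPM in control and 2.77 and 5.09 CPM in ONX-0914 libraries (Log2FC 1.08, standard error 0.464, FDR = 0.266, edgeR). Ugcg, the gene of glucosylceramide synthase, was at a Log2FC of −0.098 (standard error 0.189, FDR = 0.797, edgeR).

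Of the lysosomal list, which breaks gangliosides down, 12 of 13 genes were tested. Hexa, which encodes a lysosomal enzyme that acts on GM2, measured 104 to 132 CPM in untreated and 141 and 51.3 CPM in ONX-0914 libraries, on either side of the control range. Gm2a, the gene of the activator that presents GM2 to the enzyme, ranged from 27.8 to 33.9 CPM in control and was higher in both ONX-0914 libraries (Log2FC 0.80, standard error 0.214, FDR = 0.138, edgeR). Psap, the precursor gene of the saposins, was the most abundant per length at 495 ± 25.5 CPM per kb (SD, n = 3) in control. Its Log2FC was −0.030 with a 95% interval of −0.47 to 0.41.

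**Figure D5:**
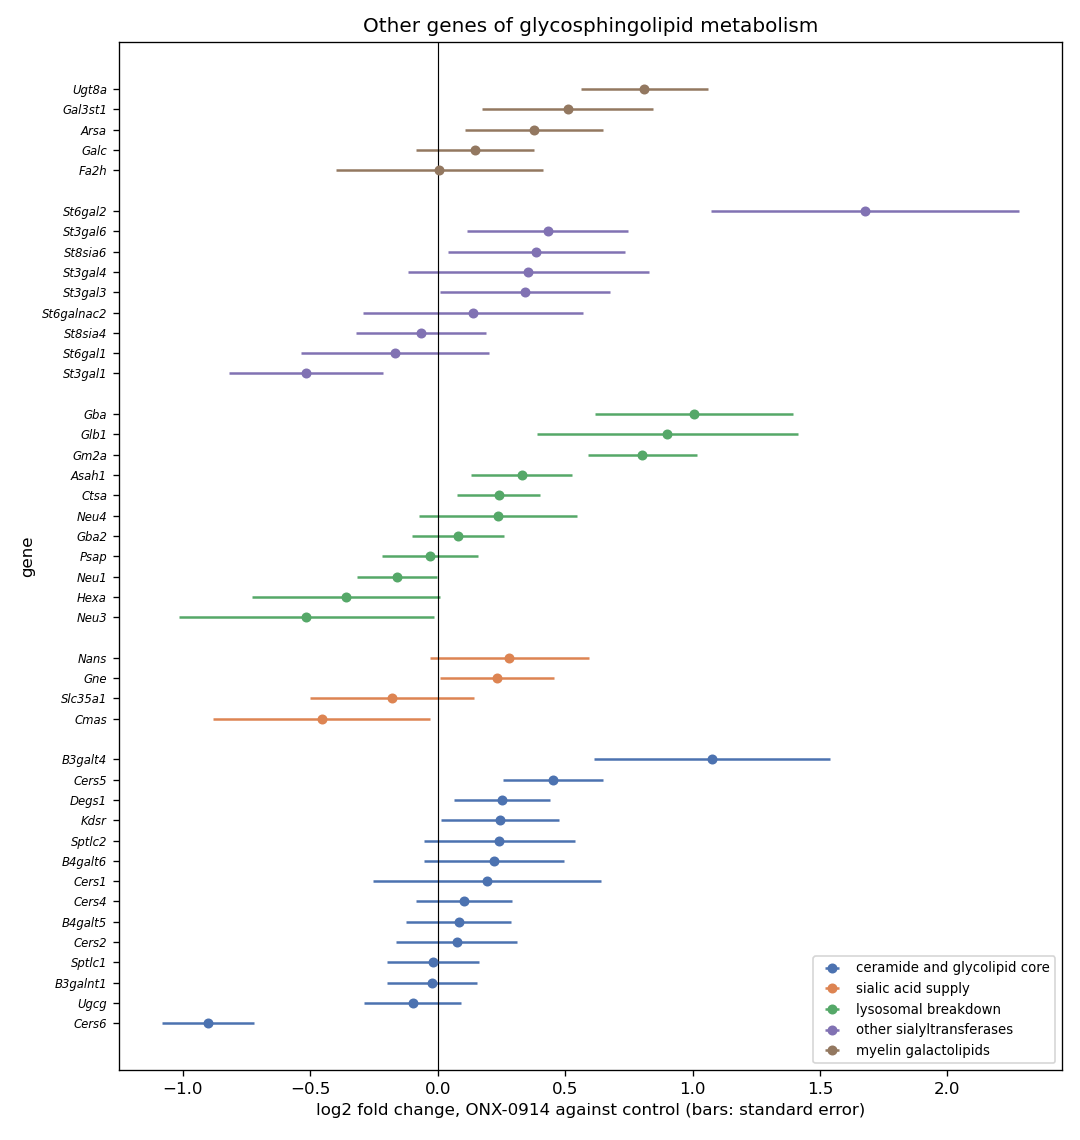
Log2 fold change between ONX-0914 and control (horizontal axis) of the other glycosphingolipid genes tested, all but 1 of the 44, with standard errors as bars, grouped by list in colours. Cers6 lies farthest to the left at −0.90 and St6gal2 farthest to the right at 1.68, and no gene passed an FDR of 0.05.

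Of the other sialyltransferases, 9 of 11 were tested, and St6galnac1 was listed at 0 in every library. St6gal2 had the lowest p of these, with 7.49, 2.999 and 5.23 CPM in control and 5.54 and 25.5 CPM in ONX-0914 libraries, a Log2FC of 1.68 (standard error 0.605, FDR = 0.209, edgeR) that rested on replicate 2. St3gal4, the most abundant per length of this list, was at 38.3 to 44.4 CPM without treatment and at 87.8 and 21.7 CPM in ONX-0914 libraries. Of the 5 genes for sialic acid supply, 4 were tested, and Nanp was listed at 0 in every library. Cmas, which encodes the enzyme that activates sialic acid for transfer, was the most abundant of them, with 222 to 247 CPM in control and 265 and 77.3 CPM in ONX-0914 libraries (Log2FC −0.45, standard error 0.426, FDR = 0.577, edgeR).

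All 5 genes of myelin galactolipids were tested. Ugt8a, which encodes the enzyme of galactosylceramide synthesis, measured 33.6 to 47.1 CPM in control, 62.8 and 67.5 CPM in DMSO and 89.1 and 53.1 CPM in ONX-0914 libraries. Both treated groups were above all control libraries. The Log2FC was 0.69 with DMSO (standard error 0.254, FDR = 0.9999, edgeR) and 0.81 with ONX-0914 (standard error 0.251, FDR = 0.167, edgeR), and these comparisons share the control libraries. Fa2h, the most abundant of the list per length, was at 71.4 to 75.2 CPM without treatment and at 114 and 35.0 CPM in ONX-0914 libraries, and oligodendrocyte markers were high and low in the same libraries.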

How the data were processed

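Per the labels, total RNA of hippocampus was made into directional libraries and sequenced single-end. The submitters' processing notes name Trimmomatic 0.39, STAR 2.7.3a, featureCounts 2.00 and GRCm39, and the annotation and strand setting are not given in the sources used here. Whole-number read counts by gene, not normalized, were deposited for each of 7 libraries, with 89.6% to 91.4% of reads assigned to genes. Rows that name no gene were left out.

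Symbols and lengths came from GENCODE M21 (GRCm38), which holds 52135 of the 55416 identifiers. No coordinates or sequences are given. For St6galnac2, which has 2 identifiers, the longer gene model was used. Counts were filtered with filterByExpr, scaled by TMM and fitted in R 4.3.3 with edgeR 4.0.16 (glmQLFit and glmQLFTest, a mean per group over all 7 libraries, prior count 0.125), with Benjamini–Hochberg adjustment over 13152 genes. Standard errors came from the F statistics, and steps were tested on simulated counts. DESeq2 1.42.0 and limma 3.58.1 were alternatives. For likeness to St6galnac5, 2 was added as a pseudocount before the log2 of CPM.

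The genes and lists were chosen with earlier results of these data known. Named genes were all 10 members, the most abundant gene per length and the gene of lowest p of each list, and the 5 genes most like St6galnac5. B3galt4, Ugcg, Hexa, Gm2a and the genes listed at 0 were added after their values were seen. 1 item that this rule names is not reported here.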

Additional observations from a re-analysis of the deposited data

How the results depend on the processing

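Each count of called genes was recomputed under 17 alternatives, of which 7 left out 1 library. The counts of called ganglioside genes with ONX-0914 use the contrasts and libraries that chose the set. They therefore cannot test these genes, St6galnac5 included, and no conclusion on a difference is drawn from them. They describe only how far the calls depend on the processing. The count between ONX-0914 and control fell from 1 to 0 without TMM scaling, with only the groups compared and with the replicate block. Of all genes tested, edgeR called 0.114% in that comparison with the main processing. Leaving out 1 library gave 0 to 5, with 0 without any control or DMSO library, 5 without ONX-0914 replicate 1 and 2 without ONX-0914 replicate 2. Against DMSO, the count rose from 0 to 1 with DESeq2, with RLE size factors and without a filter on low counts, the gene being St6galnac5, and leaving out 1 library gave 0 to 4. With DMSO against control, it was 0 in every alternative.

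For the other glycosphingolipid genes, the count between ONX-0914 and control moved from 0 to 2 with DESeq2 (1 higher, 1 lower; 2.95% of all genes called), to 3 without a filter on low counts (2 higher, 1 lower; 2.15%), and to 0 to 23 with 1 library left out. Against DMSO, it was 0 to 23 with 1 library left out, and with DMSO against control it was 1 (Ugt8a) with only the groups compared and 0 to 1 with 1 library left out. When an ONX-0914 library is left out, that group holds 1 library, which is assumed to vary like the other groups, and 7023 or 2594 of all genes were called against control. The cause of the other changes was not tested.

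Of the Log2FC values of the 10 genes with DMSO, 157 of 170 kept their sign, and none passed the threshold. With the replicate block, that of St3gal5 was 0.081 and that of St8sia5 −0.059. With 1 library left out, it ranged from −0.15 to 0.035 for St3gal5, −0.24 to 0.26 for St8sia5, −0.16 to 0.090 for B4galnt1, −0.27 to 0.024 for St3gal2, −0.27 to 0.11 for St6galnac3, −0.083 to 0.21 for St6galnac4 and −0.081 to 0.055 for St6galnac6. Libraries of the same replicate number correlated between −0.096 and 0.064 in their deviations from the group means. In a group of 2 libraries these deviations mirror each other. The check therefore cannot tell whether libraries of the same number share more than the number. The depth of the libraries other than ONX-0914 replicate 2 limits St6galnac3 most, with 31 to 49 counts.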
